A study of Mus musculus with 39 samples.

Results

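The mouse mitochondrial genome encodes subunits of the respiratory chain, and 10 of these genes were followed: ND1, ND2, ND4, ND5 and ND6 of complex I, CYTB of complex III, COX1, COX2 and COX3 of complex IV and ATP6 of the ATP synthase. They were taken as the rows on the mitochondrial chromosome that carry one of these symbols. All 10 were found among 16979 genes of the table on labelling and inhibition. Among 13938 genes of the table on fixation 8 were found, since it has no mitochondrial row for COX2 or ATP6. ND6 is described apart from the other 9, because it is the one of them encoded on the light strand.

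Polyadenylated RNA was sequenced in 39 libraries of 10 groups to ask what muscle stem cells transcribe in the animal and what changes while they are isolated. In the labelling experiment Pax7CreER/+: UPRTHA/+ mice were used, in which Cre is driven by the stem cell gene Pax7 and UPRT lets cells build 4-thiouracil (4tU) into new RNA. Hindlimb muscle gave RNA pulled down after 4tU had been injected 6 h before sacrifice (TU_6h in vivo, the 6 h label), or at intervals of 12 h over 1 d (TU_1d) or 4 d (TU_4d), and total RNA without pull-down (Input_muscle, whole muscle). Purified stem cells gave RNA pulled down after 4tU was present during an isolation of about 6 h (TU_sort ex vivo, the isolation label), total RNA of cells isolated with alpha-amanitin (MuSC_aAM) or with its solvent DMSO (MuSC_ctrlAM), and total RNA of isolated cells (Input_MuSC). The label of Input_MuSC says that it had no 4tU, whereas the protocol describes 4tU in the isolation, so whether these cells had met 4tU is unsettled. Each of these 8 groups held 4 libraries. A separate experiment compared stem cells sorted after the mouse was perfused with 1% paraformaldehyde (Fix, n = 4) with unfixed sorted cells (Fix_Control, n = 3), without 4tU and with RNA extracted by a kit for fixed tissue. No label gives an age or sex, a genotype for the fixation mice, or a statement that replicates were separate animals, so every p-value measures only the spread between these libraries, which may be technical.

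Both strands of mitochondrial DNA are copied by POLRMT, an RNA polymerase encoded in the nucleus, into long transcripts that are cut at the tRNAs between the genes. The heavy-strand mRNAs then receive short poly(A) tails, whereas ND6 mRNA is known in human cells to carry little or no tail. Alpha-amanitin is known to block RNA polymerase II, which makes nuclear mRNAs, and POLRMT is not its target. Skeletal muscle fibres are rich in mitochondria, and quiescent muscle stem cells hold few.

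ND6 differs from the other members in the base that 4tU replaces. Uracil made up 43.7% of ND6 mRNA, against 27.4 to 31.2% in the 9 heavy-strand members. The first 120 bases of ND6 and of CYTB, its neighbour on the other strand, are shown for this contrast, with each T (U in the RNA) in capitals. ND6 lies at chrMT:13552-14070 on the minus strand and CYTB at chrMT:14145-15288 on the plus strand. The stretches shown are chrMT:13951-14070 and chrMT:14145-14264, each a coding start, and hold 60 and 34 T. All sequences and coordinates are those of the GENCODE vM21 transcripts on GRCm38 (mm10).
ND6 5′ end: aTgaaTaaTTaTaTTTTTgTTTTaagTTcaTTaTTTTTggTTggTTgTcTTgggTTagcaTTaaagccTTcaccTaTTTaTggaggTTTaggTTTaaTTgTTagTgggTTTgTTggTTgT
CYTB 5′ end: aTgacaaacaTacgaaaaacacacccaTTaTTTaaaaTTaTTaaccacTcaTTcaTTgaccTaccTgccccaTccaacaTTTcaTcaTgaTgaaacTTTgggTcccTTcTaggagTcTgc

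The 3′ ends of ND5 and ND6 face each other and overlap by 14 bases, shown in capitals on the strand of each gene. The stretches are chrMT:13506-13565 on the plus strand and chrMT:13552-13611 on the minus strand. Whether reads were counted by strand is stated in no source used here. Without strand, reads of ND6 cannot be told apart from reads of heavy-strand RNA that runs across the same bases.
ND5 3′ end: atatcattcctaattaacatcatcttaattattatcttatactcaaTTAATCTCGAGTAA
ND6 3′ end: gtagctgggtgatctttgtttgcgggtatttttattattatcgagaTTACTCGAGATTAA

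COX2, ATP6 and COX3 have near-complete copies among nuclear pseudogenes. The part of these copies in their values was not tested. Of all stretches of 101 bases, the read length, 99.5% in COX2, 99.5% in ATP6 and 99.9% in COX3 stood unaltered in an annotated nuclear pseudogene transcript. That share was 60.7% in ND4, 30.7% in COX1 and 3.09% in ND2, and no such stretch was found for ND1, ND5, ND6 or CYTB. Most of the copies belong to a cluster of 7 pseudogenes at chr1:24611535-24616197 on the minus strand. The first 101 bases of COX2, at chrMT:7013-7113, and of its copy Gm28661, at chr1:24615465-24615565, are shown because they have no base that differs, and so no capitals.
COX2: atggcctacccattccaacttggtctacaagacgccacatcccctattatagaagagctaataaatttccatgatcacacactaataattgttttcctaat
Gm28661: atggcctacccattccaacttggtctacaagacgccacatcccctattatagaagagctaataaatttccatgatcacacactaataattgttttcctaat
Over 681 aligned bases COX2 and Gm28661 had 0 differences, as had ATP6 and Gm10925 over 678 bases and COX3 and Gm28437 over 783 bases. In whole muscle the 3 genes stood at 7.29 ± 1.30, 20.7 ± 3.30 and 18.5 ± 2.51 RPKM (reads per kilobase of gene, per a fixed number of reads, scaled by the authors; SD, n = 4). The other 7 members stood at 1534 to 14354 RPKM there. No source used here says how reads that could be placed at several sites were counted, so the levels of COX2, ATP6 and COX3 are uncertain and are kept apart below.

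**Figure D1:**
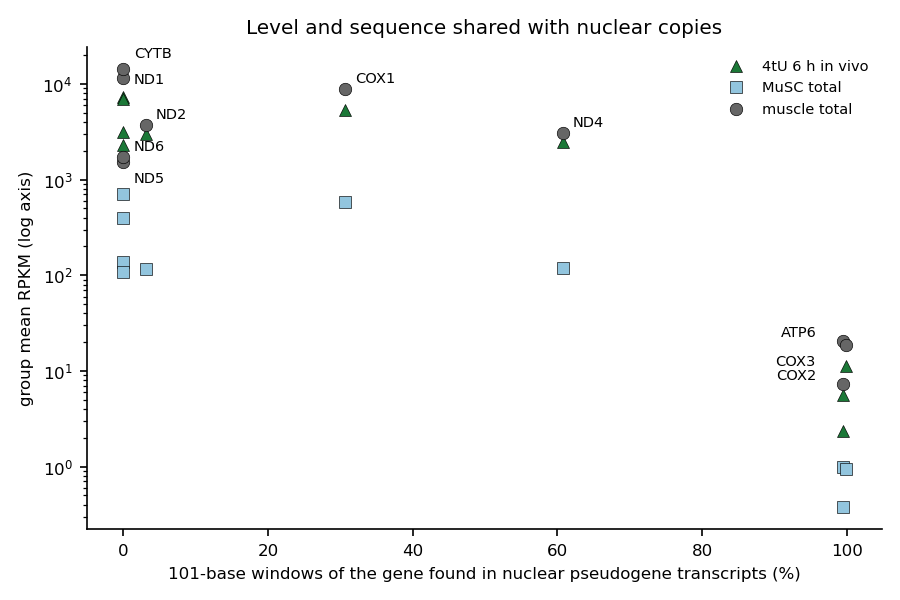
Group mean RPKM (log axis) of the 10 genes in the 6 h label, in total RNA of isolated cells and in whole muscle, against the percentage of the gene's 101-base windows found in nuclear pseudogene transcripts. COX2, ATP6 and COX3, at 99.5 to 99.9% shared, lie far below the other 7 genes in each group, while ND4 at 60.7% does not.

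Reads recovered from the deposited values numbered 2321903 to 102619074 per library, with the isolation label lowest at 2321903 to 7742378. Of all reads the 10 genes took 2.88 ± 0.162% at 6 h, 1.93 ± 0.116% at 1 d and 2.38 ± 0.0660% at 4 d of labelling, against 3.34 ± 0.0722% in whole muscle (SD, n = 4 each). They took 1.59 ± 0.503% in the isolation label, 0.991 ± 0.115% with alpha-amanitin, 0.464 ± 0.0836% with DMSO and 0.517 ± 0.0771% in isolated cells. The in vivo labels carry a label of stem cells, yet 20 muscle fibre markers took 13.4 to 13.6% of their reads at 6 h, 24.4 to 24.8% at 1 d and 23.9 to 24.7% at 4 d, against 21.6 to 22.1% in whole muscle. There 10 satellite cell markers took 0.0363 to 0.0419%, 0.0211 to 0.0220% and 0.0194 to 0.0199%, against 0.0191 to 0.0198% in whole muscle and 0.764 to 0.778% in isolated cells. One gene model, Gm10800, accounted for 13.0 to 17.5% of the 6 h label's reads and at most 5.93% in any other library of that table. Library scaling weighs on all levels, since using all reads as library sizes moved the median log2 change of all genes by -0.64 in the isolation label against isolated cells, by -0.56 with alpha-amanitin and by 1.53 in isolated cells against whole muscle. In all these samples, fewer cells of a type and less RNA per cell cannot be told apart.

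Levels of the 7 members with little shared sequence or with high values spanned more than an order of magnitude across the 8 groups. CYTB, the cytochrome b of complex III, had the highest level of the 10 in whole muscle, at 13791, 14542, 14952 and 14131 RPKM. In isolated cells it stood at 641, 605, 849 and 758 RPKM. ND1, ND2, ND4, CYTB and COX1 were each highest in whole muscle, with no overlap with the next group. ND5 and ND6, both of complex I, were highest in the 6 h label, and their whole-muscle libraries lay below all 3 in vivo labels without overlap. Below these groups the order was the isolation label, alpha-amanitin, DMSO and isolated cells for ND1, ND2, ND4, ND5, ND6, CYTB and COX1 alike. In that order DMSO and isolated cells overlapped for each of these 7 genes. The isolation label and alpha-amanitin overlapped for 5 of them, and did not overlap for ND2 and ND6.

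Within complex I the 4 heavy-strand members differed in level and in pattern. ND1 averaged 7363 ± 289.9 RPKM in the 6 h label, 4753 ± 166 in the 1 d label, 6834 ± 231 after 4 d and 11638 ± 466 in whole muscle (SD, n = 4 each). It stood above ND2, ND4 and ND5 in every library of these groups. ND2 averaged 3006 ± 102, 1959 ± 160.2 and 2410.2 ± 359 RPKM at the 3 times, against 3708 ± 137 RPKM in whole muscle, and ND4 was close to it at 2483 ± 84.2, 1783 ± 104 and 2194 ± 93.2 RPKM, against 3053 ± 150.3 RPKM. ND5, which ends inside ND6, had the lowest whole-muscle level of the 4, at 1534 ± 58.8 RPKM, and 2292 ± 212, 1711 ± 105 and 1862 ± 145 RPKM in the labels. In ND5 the libraries of 6 h and 4 d overlapped, as did those of 4 d and 1 d.

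In the isolated cells ND1 again led this complex, at 397 ± 55.7 RPKM in total RNA, followed by ND5 at 136 ± 18.3, ND4 at 118 ± 16.6 and ND2 at 115 ± 16.1 RPKM. The ranges of these last 3 over the 4 libraries overlapped. The isolation label had another order below ND1 (2686 ± 1230.3 RPKM), with ND2 at 1251 ± 342, ND4 at 784 ± 321 and ND5 at 483 ± 145 RPKM. Among the members of complex IV, COX1 had the smallest share of stretches that stood unaltered in nuclear pseudogenes. It averaged 5344 ± 253 RPKM at 6 h, 4742 ± 134 at 1 d and 6164 ± 362 at 4 d. Its level in whole muscle was 8862 ± 391 RPKM. COX1 was the only one of the 7 members with high levels whose 4 d libraries all lay above its 6 h libraries on the authors' scale.

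**Figure D2:**
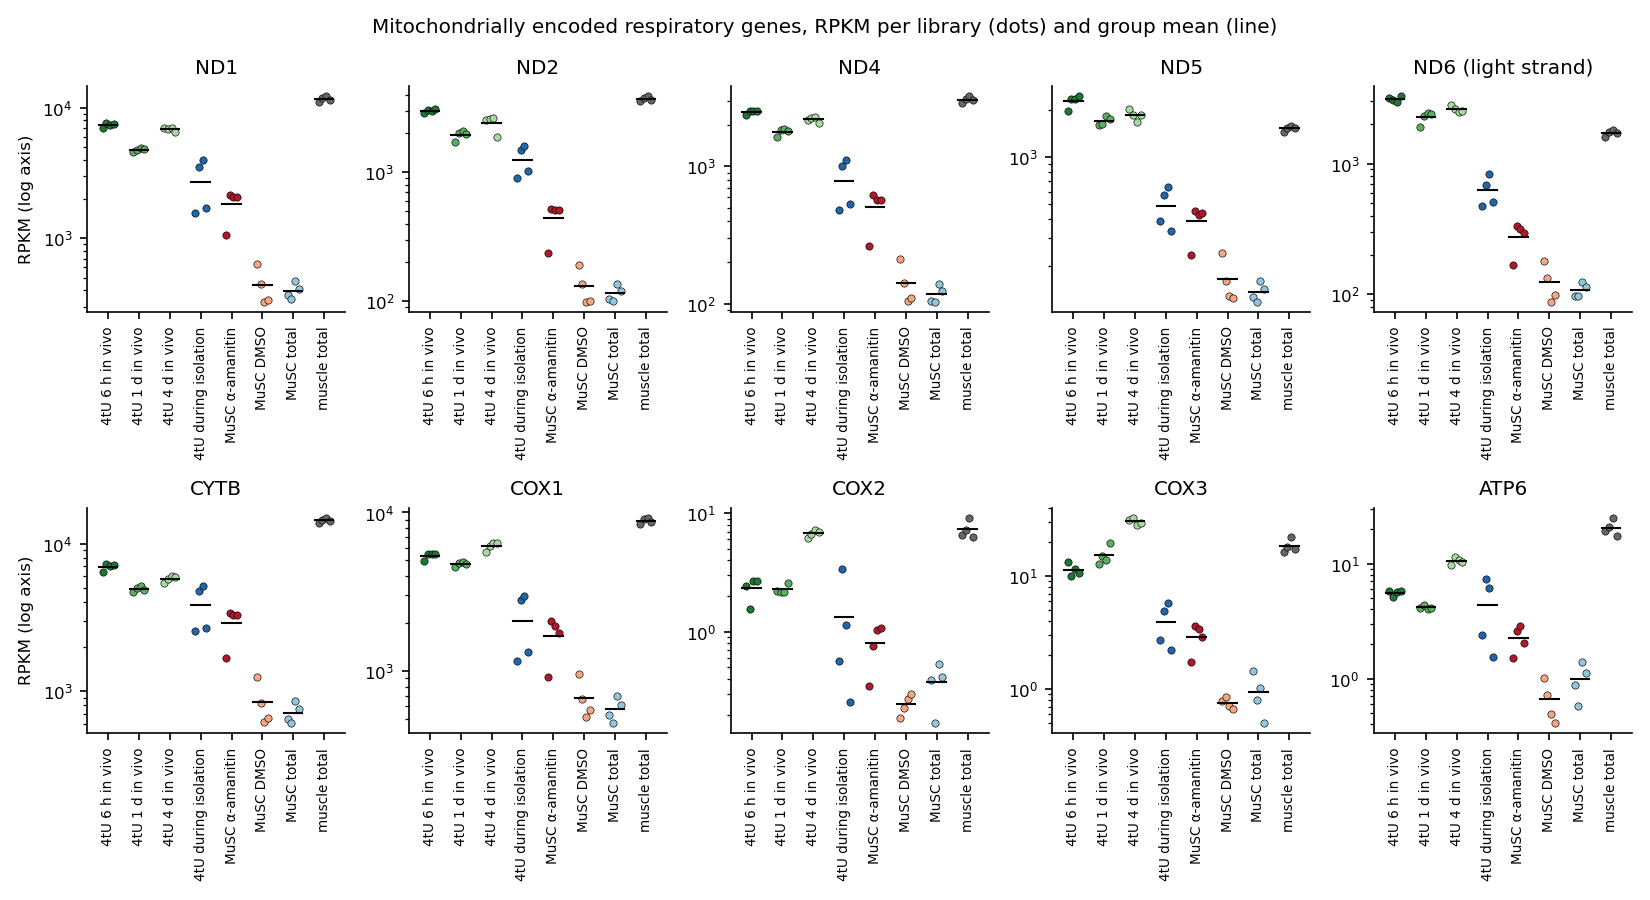
RPKM per library (dots, log axis) and group mean (line) of the 10 genes in the 8 groups of the labelling table. ND5 and ND6 are highest in the labels given in vivo, whereas CYTB, ND1, ND2, ND4 and COX1 are highest in total RNA of whole muscle.

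The labels given in vivo held far more ND6 relative to heavy-strand CYTB than whole muscle did. ND6, a membrane subunit of complex I, stood at 3179, 3075, 2952 and 3265 RPKM after labelling for 6 h, at 1903, 2311, 2428 and 2395 after 1 d and at 2807, 2613, 2457 and 2499.6 after 4 d. Whole muscle held 1608, 1727, 1799 and 1717 RPKM. All 12 labelled libraries lay above every whole-muscle library. CYTB went the other way, with 6424 to 7259 RPKM after 6 h, 4673 to 5133 after 1 d and 5373 to 6041 after 4 d, against 13791 to 14952 in whole muscle. ND5, the heavy-strand gene that overlaps ND6, also stood higher in these labels (2292 ± 212 RPKM at 6 h, against 1534 ± 58.8 in whole muscle). A shift against CYTB was thus not particular to ND6, and the ratio of ND6 to ND5 was not tested.

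Taken as a ratio within each library, which does not depend on how libraries were scaled, ND6 was 44.9 ± 3.45% of CYTB after 6 h, 46.0 ± 3.76% after 1 d and 45.0 ± 5.17% after 4 d, against 11.9 ± 0.212% in whole muscle. The log2 ratio was higher by 1.91, 1.94 and 1.91 (3.76-fold, 3.84-fold and 3.76-fold). Each difference had p = 0.0286 by a two-sided exact permutation test, the smallest that 4 against 4 libraries allow, and adjusted p = 0.0381 over the 24 tests of 2 ratios in 12 comparisons. The 3 labels share the whole-muscle libraries. Between the labels the ratio differed by -0.03 to 0.03 on the log2 scale, within their spread (adjusted p = 0.805, 1 and 0.805, exact permutation test).

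RNA labelled during isolation did not show that shift. There ND6 stood at 470.2, 684, 828 and 505 RPKM and CYTB at 2554, 4799.9, 5185 and 2670.2 RPKM, which put ND6 at 18.4, 14.3, 15.96 and 18.9% of CYTB. Isolated cells without pull-down stood at 15.1, 15.96, 14.6 and 14.9%. The 2 groups overlapped, and the log2 ratio differed by 0.15 (exact permutation p = 0.229, adjusted p = 0.289), although without isolation label replicate 2 it differed by 0.23 (adjusted p = 0.0361). The gap between labelled and total RNA was thus 1.91 in muscle at 6 h and 0.15 in isolated cells, a difference of 1.76. An exact permutation test over 4900 rearrangements of labels within each pair gave p = 0.0257. It assumes no gap in either pair, so it cannot show that the 2 gaps differ. This last test was chosen after the values had been seen. Pull-downs also differed in muscle fibre markers, at 13.4 to 13.6% of reads in the 6 h label and 3.19 to 10.6% in the isolation label.

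Fixed cells, which carried no 4tU, also had more ND6 relative to CYTB than unfixed cells did. ND6 stood at 68.0, 42.2, 88.4 and 51.6% of CYTB in fixed cells, against 9.94, 15.5 and 13.0% in unfixed cells. The groups did not overlap, and the log2 ratio was higher by 2.26 (4.78-fold, exact permutation p = 0.0286, the smallest that 4 against 3 libraries allow, adjusted p = 0.0381). With alpha-amanitin the ratio went down, to 9.88, 9.80, 9.62 and 9.01%, against 14.5, 16.3, 14.2 and 15.0% with DMSO. That difference was -0.65 on the log2 scale (1.57-fold, exact permutation p = 0.0286, adjusted p = 0.0381). Isolated cells lay 0.34 above whole muscle (adjusted p = 0.0381), and DMSO and isolated cells differed by -0.01 (0.805). What sets the ratio was not tested.

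**Figure D3:**
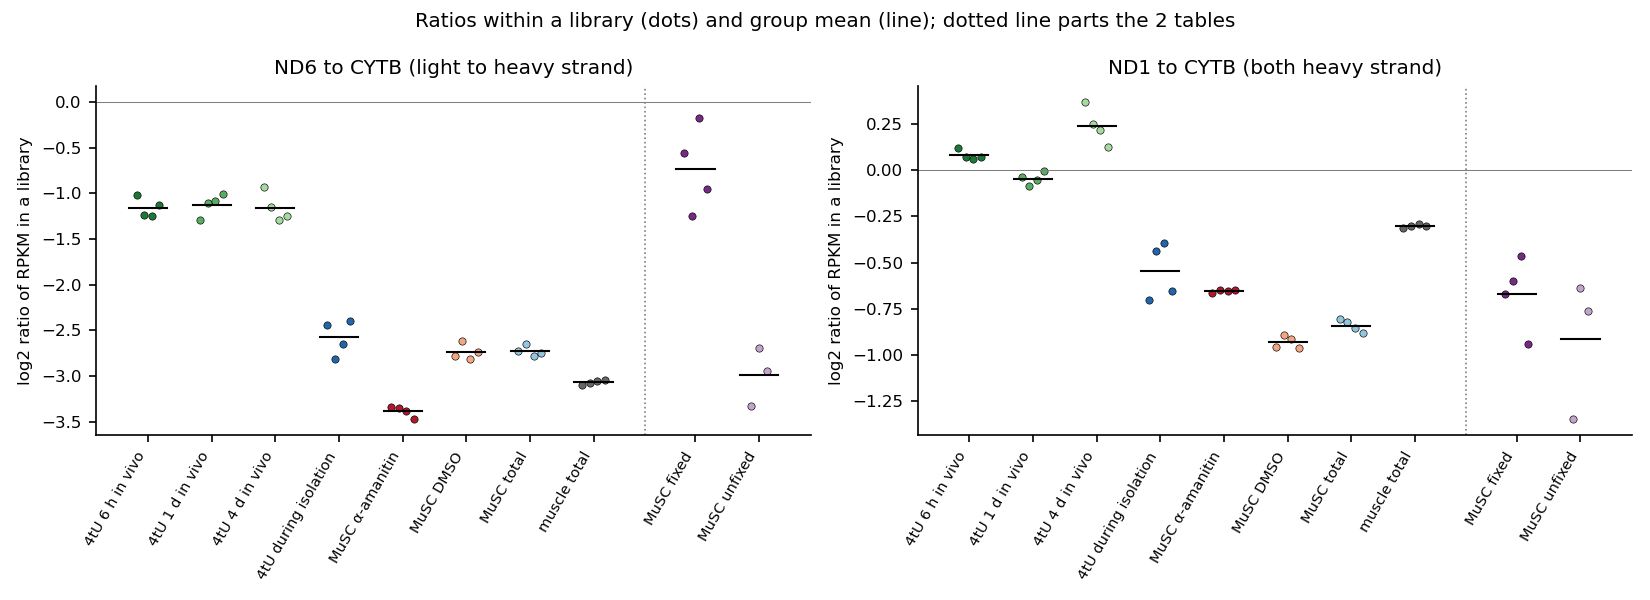
Log2 ratio of ND6 to CYTB (left) and of ND1 to CYTB (right) in each library (dots) with the group mean (line); the 2 fixation groups are from a separately normalised table. In the left panel the 3 in vivo labels average -1.16 to -1.12 and fixed cells -0.73, while the other groups lie between -3.39 and -2.58.

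A second ratio set ND1, which lies near the start of the heavy-strand transcript, against CYTB near its end. ND1 was 106 ± 1.86% of CYTB after 6 h of labelling, 96.9 ± 2.24% after 1 d and 118 ± 8.32% after 4 d, against 81.1 ± 0.417% in whole muscle. Those log2 differences of 0.38, 0.26 and 0.54 were smaller than the ones for ND6. The ratio was 68.7 ± 7.31% in the isolation label against 55.8 ± 1.26% in isolated cells, and 63.4 ± 0.300% with alpha-amanitin against 52.4 ± 1.27% with DMSO. In each of these 5 pairs the groups did not overlap (adjusted p = 0.0381, exact permutation test). The ratio was lower, also without overlap and with the same adjusted p, in isolated cells than in whole muscle (log2 difference -0.54), at 1 d than at 6 h (-0.13) and with DMSO than in isolated cells (-0.09). Calls for the isolation label and for DMSO, each against isolated cells, ended without some single libraries (adjusted p = 0.0762, exact permutation test). In fixed cells it was 63.3 ± 8.57%, against 54.2 ± 13.2% in unfixed cells, with overlap (exact permutation p = 0.371). The gap between labelled and total RNA in muscle at 6 h and in isolated cells differed by 0.09 for this ratio. The same exact permutation test, which assumes no gap in either pair, gave p = 0.649.

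Levels in the in vivo labels were then tested against whole muscle gene by gene. In the 6 h label, ND5 and ND6 were called higher, as were 45.6% of all genes tested, and the other 8 members were called lower, as were 44.4% of all genes. ND6 rose 1.82-fold (log2 change 0.86 ± 0.04 SE, adjusted p = 6.3e-10) and ND5, another membrane subunit of complex I, rose 1.49-fold (0.58 ± 0.06, adjusted p = 1.08e-06). CYTB fell 2.06-fold, COX1, the catalytic core of complex IV, fell 1.66-fold, and ND1 fell 1.58-fold. The fall of ND1 ended with library sizes from nuclear reads without Gm10800 (log2 change -0.06, adjusted p = 0.0897), as did that of COX3 (-0.10, adjusted p = 0.302). ND2 and ND4 were 1.23-fold lower each on the authors' scale, but higher when libraries were scaled to nuclear reads without Gm10800 (log2 change 0.30 each, adjusted p = 4.33e-07 and 7.75e-07), which made 4 members higher and 4 lower. On that scale ND6 was higher by 1.46 and CYTB changed by -0.45, while the median of all genes moved by 0.54.

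At 1 d the calls had the same split, 2 members higher and 8 lower, beside 28.2% and 54.7% of all genes. ND6 was 1.31-fold higher (adjusted p = 0.00017) and ND5 1.11-fold higher (0.0128), calls that ended for both when all groups entered 1 fit (adjusted p = 0.105 for ND6 and 0.550 for ND5). Without 1 d replicate 3 the call of ND5 ended (0.0550). CYTB fell 2.93-fold and ND1 2.45-fold. At 4 d 3 members were higher and 6 lower, beside 28.1% and 56.4% of all genes. ND6 was 1.51-fold higher, ND5 1.21-fold higher and CYTB 2.48-fold lower. With all groups in 1 fit the 4 d calls of ND5 (adjusted p = 0.263), COX1 (0.0764) and ND4 (0.0971) ended. COX3, one of the genes with a nuclear copy, stood at 31.1, 32.7, 28.4 and 29.2 RPKM in the 4 d label, against 16.3, 18.2, 22.03 and 17.4 RPKM in whole muscle (1.63-fold higher).

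Between labelling times the 7 members with high levels differed by 1.55-fold or less, and COX2, ATP6 and COX3 were higher at 4 d. At 1 d against 6 h, 8 of 10 members were called lower (50% of all genes) and 1 higher (36.2%). ND1 and ND2 fell 1.55-fold and 1.54-fold, and ND4, ND5, ND6 and CYTB fell 1.34-fold to 1.42-fold, but with all groups in 1 fit 3 members were called lower and none higher. At 4 d against 6 h, 4 were higher and 6 lower (36.1% and 52.7% of all genes), with COX1 1.15-fold (lower, at -0.18 on the log2 scale, with nuclear library sizes) and ATP6, COX2 and COX3 1.82-fold, 2.60-fold and 2.62-fold higher, but none of the 6 lower calls was made with median-of-ratios factors or with all groups in 1 fit. At 4 d against 1 d, 9 were higher and none lower (21% and 33.3% of all genes), with ND5 not past the test (1.09-fold, adjusted p = 0.133), and with all groups in 1 fit 3 were higher.

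COX2 stood at 2.45, 1.55, 2.69 and 2.66 RPKM at 6 h, at 2.19, 2.18, 2.17 and 2.56 at 1 d, and at 6.21, 6.72, 7.22 and 6.96 at 4 d. The 4 d libraries lay above all others, 2.62-fold above 1 d (log2 change 1.39 ± 0.06, adjusted p = 1.14e-08). ATP6, a membrane subunit of the ATP synthase, was 2.37-fold higher at 4 d than at 1 d, and COX3 was 1.98-fold higher. These values rest on 50 to 79 reads per library for COX2 at 1 d and 124 to 230 at 4 d. Markers of red blood cells, at 0.217 to 0.242% of reads at 4 d and 0.0643 to 0.0677% at 1 d, moved in the same direction, and their part in these values was not tested.

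**Figure D4:**
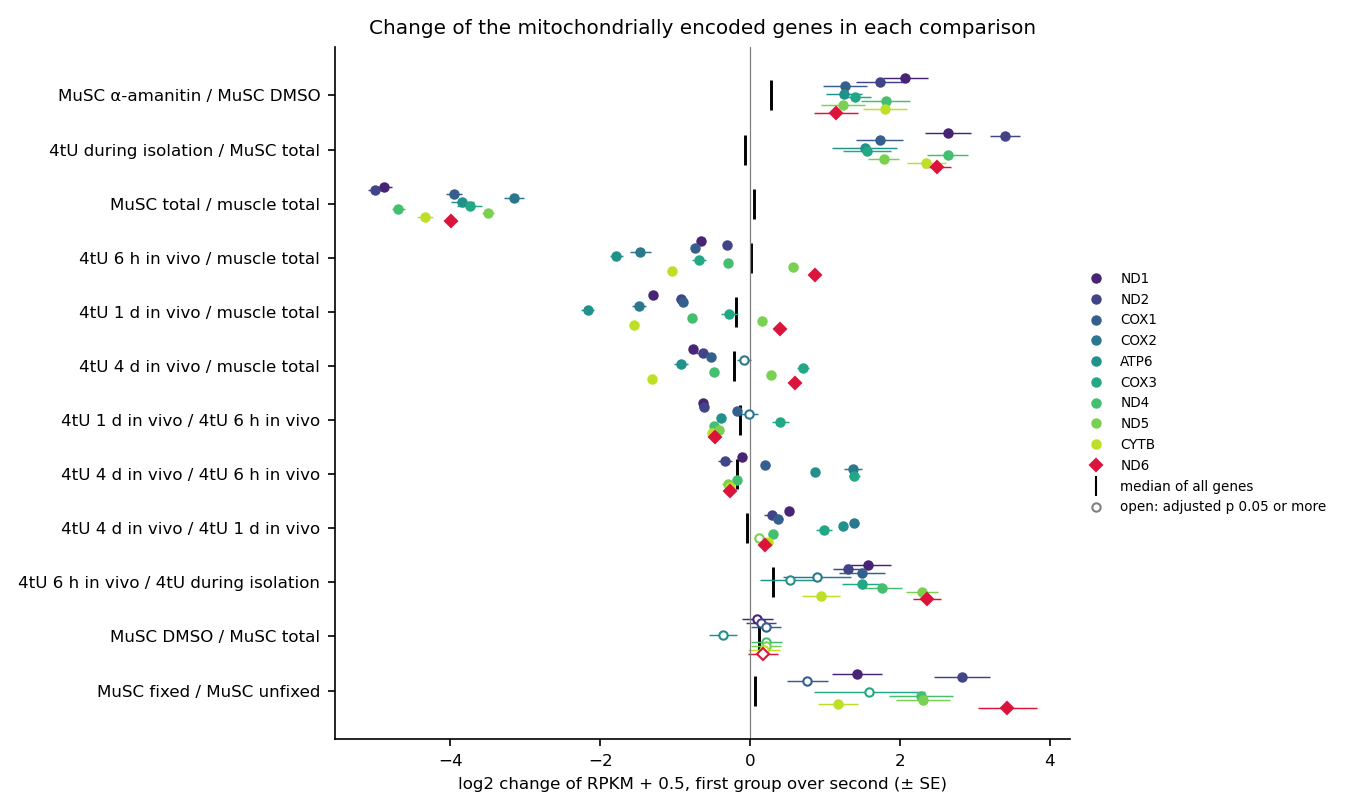
Log2 change (± SE) of the 10 genes in the 12 comparisons, first group over second, on the log2(RPKM + 0.5) scale of limma; filled points had an adjusted p under 0.05 and the black tick is the median of all genes tested. ND6 (red) lies to the right of CYTB against whole muscle and in fixed cells, and to its left with alpha-amanitin.

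In RNA labelled during isolation the members were higher than in total RNA of isolated cells. ND2, a core subunit of complex I, stood at 903, 1479, 1604 and 1020.0 RPKM in the isolation label, against 103, 101, 136 and 121 RPKM in isolated cells. Every labelled library lay above every total one, and the change was 10.6-fold (log2 3.40 ± 0.20, adjusted p = 9.8e-07). ND1 and ND4 rose 6.25-fold and 6.23-fold, ND6 5.65-fold, CYTB 5.10-fold, ND5 3.43-fold and COX1 3.31-fold. These 7 members stood above 1 RPKM in every library, and 29.8% of all genes were called higher and 29.7% lower. COX2 was not tested. ATP6 and COX3, with 6 to 27 and 10 to 29 reads per library in the label, passed the filter on low values only with the label's libraries, where they are high, so their calls as higher are given no weight. With library sizes from nuclear reads without Gm10800 the same test gave 2.78 for ND2, and the median of all genes moved by -0.59.

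Levels within that group followed the share of muscle fibre markers. Replicates 1 to 4 had 3.19, 9.88, 10.6 and 3.38% of reads in those markers and 1568, 3539.5, 3943 and 1695 RPKM of ND1. In isolated cells the markers took 0.135 to 0.235%, with at most 1 of the 20 at 0. With replicates 1 and 4 alone, an alternative added after the values were seen, ND1, ND2, ND4, ND5, ND6, CYTB and COX1 were again called higher. The log2 change was 3.06 for ND2 and 2.05 for ND1. Markers of other cells also differed, with satellite cell markers at 0.180 to 0.350% of reads in the isolation label, against 0.764 to 0.778% in isolated cells (8 of 10 called lower). Erythroid markers took 0.0710 to 0.0987%, against 0.00586 to 0.00639%, and immune markers 0.100047 to 0.107%, against 0.0227 to 0.0235%. The part of RNA from fibres or other cells in these levels was not tested. Against the isolation label, the 6 h label in muscle was higher in 8 of 10 members (38.5% of all genes) and lower in none (24.4%), with ND6 5.14-fold and CYTB 1.93-fold higher. The call of CYTB ended when all reads set the library sizes (log2 0.39, adjusted p = 0.151).

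These transcripts stood at higher RPKM in cells isolated with alpha-amanitin than in cells isolated with DMSO. RPKM is relative to the other RNA sequenced, so it gives no amount per cell. ND1, a core subunit of complex I, stood at 1061, 2153, 2083 and 2074 RPKM with alpha-amanitin, against 639, 444, 328 and 338 RPKM with DMSO. The groups did not overlap, although replicate 1 with alpha-amanitin lay well below the other 3 of its group. The change was 4.20-fold (log2 2.07 ± 0.30, adjusted p = 0.00211). CYTB stood at 1683, 3381, 3284 and 3258 RPKM, against 1242, 824, 618 and 659.9 RPKM (3.47-fold, adjusted p = 0.00365).

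ND4 and ND2 rose 3.51-fold and 3.32-fold with alpha-amanitin, again without overlap. COX1 (925, 2061, 1929.5 and 1732 RPKM with alpha-amanitin, against 963, 671, 516 and 571 with DMSO) rose 2.40-fold, ND5 rose 2.37-fold and ND6 2.21-fold. For these 3 genes the low alpha-amanitin replicate lay under the highest DMSO library. ND6 stood at 166, 331, 316 and 293 RPKM with alpha-amanitin, against 180.0, 134, 88.0 and 99.0 with DMSO. Its rise was the smallest among the 7 members above 1 RPKM in every library (log2 1.15 ± 0.30, adjusted p = 0.0148). The call of ND6 ended without alpha-amanitin replicate 2 (adjusted p = 0.0549) and without replicate 3 (0.0508). Of all genes 33.9% were called higher and 10.3% lower, beside these 7 members, each above 1 RPKM in every library and called higher. ATP6 and COX3 passed the filter on low values only with the alpha-amanitin libraries, where they are high, so their calls as higher are given no weight.

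Without alpha-amanitin replicate 1 the rises were larger, at 2.32 for ND1, 2.04 for CYTB and 1.37 for ND6 on the log2 scale, and with library sizes from all reads they were smaller, at 1.56, 1.28 and 0.63, with all genes at a median of -0.29. Muscle fibre markers took 1.15, 2.84, 3.02 and 3.44% of reads in alpha-amanitin replicates 1 to 4, against 0.0994 to 0.119% with DMSO. The replicate with the lowest marker share was also the one with the lowest levels of the members. Satellite cell markers took 0.517 to 0.569%, against 0.710 to 0.806% with DMSO, with 2 of 10 called lower and 1 higher. Fibro-adipogenic markers took 1.17 to 1.19%, against 0.826 to 0.988%, and erythroid markers 0.0132 to 0.0288%, against 0.00851 to 0.0117%. The part of RNA from fibres or other cells in the rises was not tested.

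**Figure D5:**
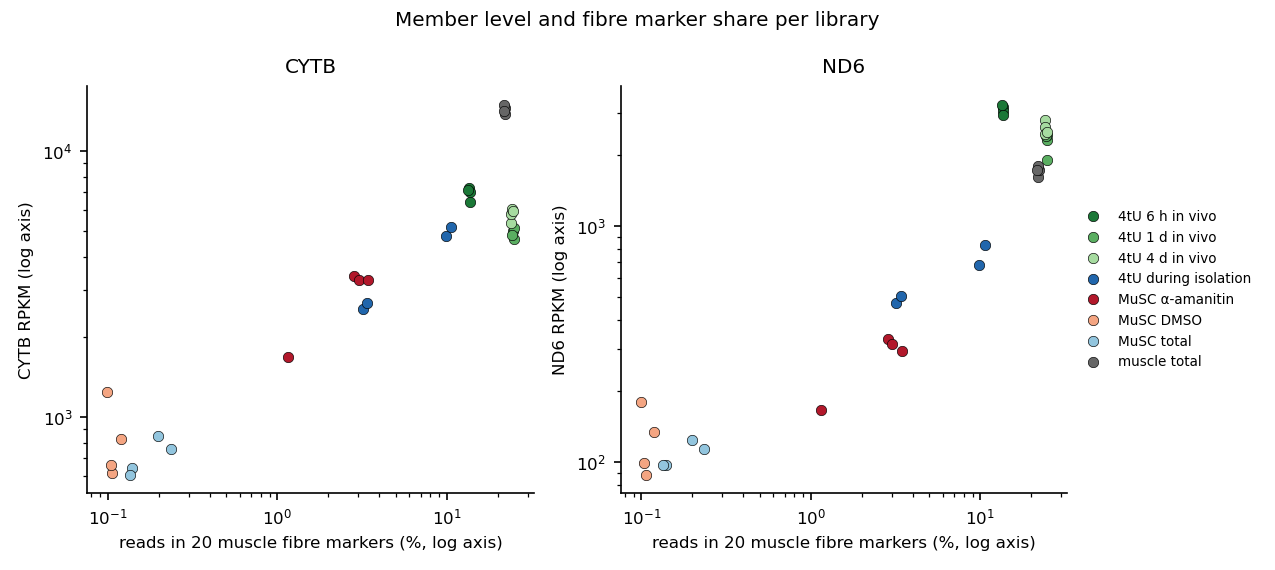
RPKM of CYTB (left) and ND6 (right) against the percentage of reads in 20 muscle fibre markers, per library of the labelling table, both axes log. Alpha-amanitin replicate 1, at 1.15% fibre marker reads, lies below the other 3 of its group, and the 4 isolation label libraries fall into a lower and a higher pair.

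Levels of single members were not called between DMSO cells and isolated cells, although the ratio of ND1 to CYTB was lower with DMSO, as given above. Of 8 members tested in DMSO cells against isolated cells, none was called by limma, beside 24.7% of all genes called higher and 18.9% lower. CYTB averaged 836 ± 285 RPKM with DMSO and 713 ± 111 in isolated cells (log2 change 0.19 ± 0.21, adjusted p = 0.480), and ND6 125 ± 41.4 and 107 ± 13.1 RPKM (0.17 ± 0.20, adjusted p = 0.486). No member had an unadjusted p under 0.05, and limma-voom on the recovered reads called none. With library sizes from all reads these 2 changes were -0.16 and -0.17, and ATP6 alone was called lower. Markers of other cells differed between these groups, with 8 of 8 endothelial, 8 of 8 immune, 7 of 8 fibro-adipogenic and 5 of 5 tested erythroid markers called higher with DMSO. Endothelial markers took 0.0970 to 0.112% of reads with DMSO, against 0.0568 to 0.0602% in isolated cells, and their part in the values was not tested.

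These genes stood at lower RPKM in isolated cells than in whole muscle, a comparison in which 46.5% of all genes were called lower and 48.8% higher. COX2, ATP6 and COX3 passed the filter on low values through whole muscle, where they are high, so their calls as lower are given no weight. With library sizes from all reads the other 7 were still called lower, as were 3352 of 16285 genes. On the authors' scale ND2 was 32.2-fold lower, ND1 29.5-fold, ND4 25.9-fold, CYTB 20.3-fold, ND6 15.9-fold, COX1 15.5-fold and ND5 11.3-fold, while fibre markers took 0.135 to 0.235% of reads, against 21.6 to 22.1% in whole muscle.

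Perfusion with paraformaldehyde before isolation went with higher levels in the sorted cells, unequally between members. ND6 stood at 4429, 2536, 7269 and 3764 RPKM in fixed cells, against 264, 611 and 362 RPKM in unfixed cells. The lowest fixed library lay above the highest unfixed one, and the rise was 10.8-fold (log2 3.43 ± 0.39, adjusted p = 0.000407). ND2 stood at 3239.7, 2080.4, 4329.9 and 2606 RPKM, against 249.5, 709 and 407 RPKM (7.09-fold, adjusted p = 0.00078). ND5 and ND4 rose 4.97-fold and 4.86-fold, ND1 2.68-fold and CYTB 2.26-fold, without overlap in each case.

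COX1 averaged 3855 ± 624 RPKM in fixed cells (n = 4) and 2319.7 ± 723 in unfixed cells (n = 3), without overlap, and did not pass the test (1.70-fold, adjusted p = 0.0742). COX1 did pass with limma-voom on recovered reads (adjusted p = 0.0347), with nuclear library sizes (0.0484) and without unfixed replicate 2 (0.0289). The call of CYTB ended without unfixed replicate 3 (adjusted p = 0.0538). COX3 did not pass either, with 26.6 RPKM in fixed replicate 4 and 1.496 to 6.18 in the other 3, against 1.18 to 1.74 in unfixed cells. In all, 6 of 8 members were called higher and none lower, beside 12.2% and 10.8% of all genes. Fibre markers took 0.0482 to 0.253% of reads in fixed cells, against 0.1002 to 1.15% in unfixed cells, ranges that overlap. Satellite cell markers took 0.253 to 0.465% in fixed cells, against 0.643 to 0.731% in unfixed cells (5 of 10 called lower, 2 higher). Endothelial markers took 0.00584 to 0.0268%, against 0.0372 to 0.168% (7 of 8 called lower). Neither pair of ranges overlaps, and the part of other cells in the members' levels was not tested. Among unfixed cells, replicate 1, with the most fibre marker reads, had the lowest ND1 level, at 1041 RPKM. That is 1 library of 3, and a link between fibre marker reads and ND1 was not tested.

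Where called, nuclear genes of the respiratory chain and ATP synthase were higher with alpha-amanitin, in the isolation label and in fixed cells. The called members were also higher there. None of the members belongs to complex II. With alpha-amanitin, 36 of 36 complex I subunits, 3 of 4 of complex II, 9 of 9 of complex III, 14 of 14 of complex IV with cytochrome c and 15 of 15 of the ATP synthase were called higher than with DMSO, beside 33.9% of all genes. Among them Cox6a2, the complex IV subunit of heart and skeletal muscle, rose most (76.8-fold, adjusted p = 9.72e-05), in the libraries with 1.15 to 3.44% of reads in muscle fibre markers. In the isolation label all of these subunits were called higher than in isolated cells, with list medians of 3.03 to 3.78 on the log2 scale against -0.07 for all genes. In the 6 h label against whole muscle, 36 of 36 complex I subunits were lower (list median -1.29), as were 14 of 15 of the ATP synthase, with Atp5e higher (1.23-fold), beside 44.4% of all genes lower.

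At 1 d against 6 h all 36 nuclear complex I subunits were called higher (list median 0.92, against -0.13 for all genes), and ND1, ND2, ND4, ND5 and ND6 were called lower, beside 36.2% and 50% of all genes. The calls of ND4 and ND5 ended with all groups in 1 fit (adjusted p = 0.0879 and 0.0792), and the difference between nuclear and mitochondrial genes was not tested. All 20 muscle fibre markers were also called higher at 1 d (list median 1.05), at 24.4 to 24.8% of reads, against 13.4 to 13.6% at 6 h. In fixed cells 30 of 36 complex I subunits, 1 of 4 of complex II, 5 of 9 of complex III, 9 of 14 of complex IV and 12 of 15 of the ATP synthase were higher and none lower, beside 12.2% and 10.8% of all genes. Genes of mitochondrial DNA transcription and copying showed no such uniform direction. With alpha-amanitin 6 of 14 tested were higher and 1 lower, near the 33.9% and 10.3% of all genes, among them the elongation factor Tefm (1.86-fold) and Polrmt, the polymerase itself (1.78-fold). In the 6 h label against whole muscle, where 45.6% of all genes were higher and 44.4% lower, 8 of 16 were higher, such as Ppargc1a, a coactivator of mitochondrial biogenesis (4.19-fold), and 5 lower, such as Top1mt, the mitochondrial topoisomerase (2.85-fold). Of 17 genes of mitochondrial RNA processing, 3 were higher and 12 lower there, with Hsd17b10, a subunit of mitochondrial RNase P, 2.56-fold lower.

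Among 8581 nuclear genes with a symbol, those whose pattern over the 8 group means was most like the mean of the 9 heavy-strand genes were Itgb1bp1 (Pearson r = 0.996), Orm1, Glrx, Ociad2 and Prkag3 (0.993). Those most like ND6 were Mrpl43 (0.999), Mief2, Dhrs11, Zfp560 and Ung (0.994). ND6 itself had r = 0.960 with the heavy-strand mean. That mean weighs COX2, ATP6 and COX3, whose levels are uncertain, equally with the other heavy-strand genes. The 8 points share their libraries, scaling and depth, so these values only describe the likeness of the patterns. All 5 genes most like the heavy-strand mean were highest in whole muscle, and 4 of the 5 most like ND6 were highest in the 6 h label, Zfp560 in the 4 d label.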

How the data were processed

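The authors' deposited values are RPKM, made per the submitters' processing notes with Trim Galore, STAR, featureCounts of Subread and edgeR on mm10; their versions were not stated. In the larger table each column name stands 1 cell left of its values, so the names were shifted by that cell before use. RPKM times gene length gave whole numbers of reads (tolerance 0.1) for 100% of low values, and hence depths and the authors' scaling factors (0.612 to 1.95 in the larger table, 0.903 to 1.01 in the other); intervals were not computed, and reads amplified by PCR are not independent molecules. Since each table had its own normalisation, no test spans both, and 0 value columns were left unused.

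Groups were compared with limma 3.58.1 (R 4.3.3), trend option, on log2(RPKM + 0.5) of the 2 groups, for genes that reached 1 RPKM in 3 or more libraries. Folds are on that scale, which understates changes of low genes, and calls needed p under 0.05 after Benjamini-Hochberg adjustment over all genes. Ratios within a library were compared by two-sided exact permutation tests (Python 3.11.15, numpy 2.4.6). Same-numbered libraries met no criterion for pairing. No pair of replicates held identical values. The fit was tested on simulated data. Sequences, gene names and pseudogenes came from GENCODE vM21. Where 2 rows share a symbol, the one whose gene ID carries that name was used, as for Ndufa13.

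The members and gene lists were chosen with earlier results of these data known. All members are named; of each list up to 2 called genes with the largest rise and fall could be named, and the 5 most alike nuclear genes at 5 RPKM or more in a group. Alternatives were other library scalings, pseudocount and filter settings, limma-voom on recovered reads, a replicate block, 1 fit over all groups, and each library left out.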

Additional observations from a re-analysis of the deposited data

Results flagged for a closer look

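Of 115 groups of 4 libraries checked, 10 held a library apart from the other 3, and chance alone marks about 1 in 20 such groups. Alpha-amanitin replicate 1 stood low for 5 members: 1061 RPKM of ND1 against 2074 to 2153 in the other 3, 236 of ND2 against 508 to 523, 263 of ND4 against 571 to 622, 234 of ND5 against 424 to 452 and 1683 of CYTB against 3258 to 3381. The same library had the lowest share of muscle fibre marker reads of its group, at 1.15%. Fixed replicate 4 stood high for ND1 (5964 against 3793 to 4094 RPKM). Single libraries of the in vivo labels stood apart for ND2 (1875 RPKM in 4 d replicate 4), COX1 and ND4 (4967 and 2358 RPKM in 6 h replicate 1) and COX2 (2.56 RPKM in 1 d replicate 4).

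The log2 ratio of ND6 to CYTB differed between labelled and total RNA by 1.76 more in muscle at 6 h than in isolated cells. This comparison of the pairs was chosen after the values had been seen. The exact permutation test that flagged it (p = 0.0257) assumes no gap in either pair, so it cannot show that the pairs differ.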

How the results depend on the processing

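Of 384 settings for counts of members called, 372 stayed within 1.5 times of the count given, and the 12 that did not are these. Nuclear library sizes without Gm10800 gave 4 higher and 4 lower at 6 h against whole muscle, and 0 higher at 1 d against 6 h. All groups in 1 fit, which shares 1 spread over unlike groups, gave 0 higher at 1 d against whole muscle, 0 higher and 3 lower at 1 d against 6 h, 0 lower at 4 d against 6 h and 3 higher at 4 d against 1 d. Median-of-ratios factors gave 0 lower at 4 d against 6 h, and sizes from all reads or from nuclear reads gave 1 lower with DMSO against isolated cells. Without single libraries, 1 to 2 members were higher at 1 d against whole muscle.

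Log2 changes of members had another sign as follows. At 6 h against whole muscle ND2 and ND4 were 0.0570 and 0.0620 with sizes from all reads and 0.30 and 0.30 with nuclear ones. At 4 d against whole muscle COX2 was 0.10 and 0.11 with these, and -0.151 to 0.0212 without single libraries. At 1 d against 6 h median-of-ratios factors gave COX1 0.0348 and COX2 0.16, and leaving out libraries gave COX2 -0.162 to 0.0504. At 4 d against 6 h ND1 was 0.0606 with those factors and COX1 -0.18 with nuclear sizes. With DMSO against isolated cells, sizes from all or from nuclear reads gave ND1 -0.25, ND2 -0.20, COX1 -0.14, ND4 -0.13, ND5 -0.13, ND6 -0.17 and CYTB -0.16, median-of-ratios factors gave ND1 -0.0198, and leaving out libraries gave ND1 -0.10 to 0.22, ND2 -0.0472 to 0.264, ND6 -0.0207 to 0.322 and CYTB -0.0240 to 0.312. The cause was not tested.

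Without single libraries the log2 ratio of ND6 to CYTB differed by 0.0928 to 0.229 in the isolation label against isolated cells, -0.00365 to 0.0908 at 1 d against 6 h, -0.0738 to 0.0477 at 4 d against 6 h, -0.107 to 0.0129 at 4 d against 1 d and -0.0522 to 0.0135 with DMSO against isolated cells. ND1 to CYTB differed by 0.243 to 0.346 in the isolation label, 0.116 to 0.197 at 4 d against 6 h and -0.103 to -0.0780 with DMSO. Each of these calls ended in some of those settings (adjusted p = 0.0762, exact permutation test). For the isolation label this was on leaving out any library of isolated cells, and at 4 d any 6 h library. With DMSO it was without DMSO replicate 1 or 4, or isolated-cell replicate 1 or 2.

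Same-numbered libraries did not deviate together (r -0.59 to 0.24). With the replicate block 6 members were higher with alpha-amanitin (9 without the block). ATP6 and COX3, whose calls there are given no weight, are in both counts. In fixed cells 5 were higher (6 without the block), and at 4 d against 1 d 8 were higher (9 without the block). The other counts were unaltered. The calls lost were ND6, COX1 and ND5 with alpha-amanitin (adjusted p = 0.0767, 0.0582 and 0.0656), CYTB in fixed cells (0.0789) and ND6 at 4 d against 1 d (0.0722). COX2, ATP6 and COX3 rest on as few as 1, 6 and 10 reads in the isolation label, so changes there were detectable only where large.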
